A study of Mus musculus with 6 samples.

Results

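Trophectoderm is the outer layer of the blastocyst that gives rise to the placenta, and the 9 genes described here are used as its markers and regulators: Cdx2, Elf5, Eomes, Tfap2a, Tfap2c, Tead4, Hand1, Plet1 and Esx1. They were picked by symbol, with GATA factors and keratins left out, and all 9 are among the 20461 genes with a p-value of the 25239 genes listed. Of the 9, 8 encode transcription factors, while Plet1 encodes a cell surface glycoprotein. RNA was sequenced from E14 cells, a mouse embryonic stem (ES) cell line, grown in N2B27 medium with LIF and 2i. One group, labelled WT, was transfected with control siRNA, and the other, labelled EHMT2 knockdown, with siRNA against Ehmt2, the H3K9 methyltransferase also called G9a. Both groups received 2 μl of a 40 μM siRNA stock and were collected on day 3, with 3 libraries each. The labels do not say whether the libraries came from separate cultures, so p-values measure only the spread between these libraries. E14 is 1 established line, and no trophoblast cells or other cell types were sequenced for comparison.

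In the early embryo, TEAD4 acts with the coactivator YAP in outer cells to switch on Cdx2, and CDX2 in turn represses Pou5f1. Eomes, Elf5 and Tfap2c then maintain trophoblast stem cells, in which Plet1 marks the cell surface, whereas Hand1 and Esx1 act in the giant cells and the labyrinth of the later placenta. ES cells rarely enter this lineage, and DNA methylation of the Elf5 promoter is known to separate them from trophoblast stem cells. Several of the genes also act elsewhere: Eomes and Cdx2 in the primitive streak, Tfap2a in surface ectoderm and neural crest, Tfap2c in primordial germ cells, and Hand1 in mesoderm.

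Plet1 and Cdx2 rose after Ehmt2 siRNA, Tead4 fell slightly, and the other 6 genes did not pass the test. In the authors' deposited table Plet1 was 3.33-fold higher (95% interval 2.78 to 4.00) and Cdx2 2.48-fold higher (1.57 to 3.93), while Tead4 stood at 80.7% of its control level (69.8% to 93.2%). The call required an adjusted p below 0.05, by Benjamini-Hochberg adjustment over all genes of the p-values from the authors' DESeq2 comparison, with 3 libraries per group. Thus 3 of the 9 genes were called, against 10.3% of all tested genes. Of all genes whose mean was 50 normalized counts or more, 14.1% were called. Elf5 (mean 3.61) and Hand1 (1.66) lie under that limit, so the 9 genes are not a like set. Higher in Ehmt2 siRNA were 2 of the 9, against 5.45% of all genes, and lower was 1 of the 9, against 4.82%. The lower call, Tead4, was lost with the GC trend subtracted, while at an unadjusted p under 0.05 the 9 genes gave 2 higher and 3 lower. The median log2 fold change was 0.19 for the 9 genes and 0.01 for all tested genes. Ehmt2 itself was at 34.7% of its control level (29.4% to 41.0%) in the authors' deposited table. Its header leaves the numerator of the ratio unnamed. Directions here rest on taking Ehmt2 as the gene that was lowered, so Ehmt2 is no independent check of the labels.

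The authors' deposited table gives 1 mean per gene over the 6 libraries. Genes covered by just 1 read show what a read was worth in each library, and the 6 values found give the size factors, which were 1.05, 1.01 and 0.845 on the control side and 1.25, 0.952 and 0.952 on the Ehmt2 siRNA side. For 7 of the 9 genes 1 set of whole reads was taken. It met the deposited mean and, where several sets did so, came closest to the deposited fold change. Values by library below come from these reads, divided by the size factor of the library. Libraries are numbered 1 to 3 within a group from the largest size factor to the smallest, and these are not the replicate numbers of the labels. Tead4 and Tfap2c have too many reads for such a solution. For them the group means implied by the mean and the fold change are given, with no spread.

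Upstream sequences of the 2 genes that rose, and of Esx1 and Elf5 for contrast, are shown because they differ widely in CpG content, the substrate of DNA methylation. They are the 250 bases before the transcription start in RefSeq (GRCm38.p6), 5′ to 3′ on the strand of the gene, with each CG in capitals. They lie at chr9:50494275-50494524 (plus strand, Plet1), chr5:147307250-147307499 (minus strand, Cdx2), chrX:137120327-137120576 (minus strand, Esx1) and chr2:103423818-103424067 (plus strand, the downstream of 2 starts listed for Elf5). The Esx1 window lies within the RefSeq locus of the gene (137115397 to 137122131), so the start taken is not the 5′ end of that locus.
Plet1: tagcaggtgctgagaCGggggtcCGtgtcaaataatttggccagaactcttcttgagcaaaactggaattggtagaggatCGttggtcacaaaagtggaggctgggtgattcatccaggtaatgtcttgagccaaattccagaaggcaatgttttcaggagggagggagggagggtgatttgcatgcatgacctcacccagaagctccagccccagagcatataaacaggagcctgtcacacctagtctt
Cdx2: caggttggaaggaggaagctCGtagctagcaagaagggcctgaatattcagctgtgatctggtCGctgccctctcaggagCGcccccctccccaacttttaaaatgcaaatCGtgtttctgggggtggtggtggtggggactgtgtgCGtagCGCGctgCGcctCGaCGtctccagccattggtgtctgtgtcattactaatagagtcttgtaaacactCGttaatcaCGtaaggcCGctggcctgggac
Esx1: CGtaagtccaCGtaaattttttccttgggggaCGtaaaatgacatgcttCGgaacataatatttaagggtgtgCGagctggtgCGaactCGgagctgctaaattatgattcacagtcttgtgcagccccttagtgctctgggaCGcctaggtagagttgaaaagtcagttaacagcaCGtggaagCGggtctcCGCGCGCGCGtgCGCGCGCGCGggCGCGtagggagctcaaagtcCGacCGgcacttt
Elf5: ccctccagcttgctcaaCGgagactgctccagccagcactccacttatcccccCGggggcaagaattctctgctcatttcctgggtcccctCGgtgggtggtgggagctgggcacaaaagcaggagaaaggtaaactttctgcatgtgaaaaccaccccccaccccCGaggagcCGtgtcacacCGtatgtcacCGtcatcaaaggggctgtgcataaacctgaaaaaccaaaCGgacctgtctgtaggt

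Plet1 has 3 CG in this window, Elf5 8, Cdx2 13 and Esx1 24, against a median of 6 over 32851 promoter windows of this length. The quartiles of all windows were 2 and 16. The upstream Elf5 start has 2 CG in its window, so the value for Elf5 depends on the start taken. The value for Esx1 is that of a start inside its locus. The gene that rose most of the 9 lies below the median and the other riser above it. Of the genes not shown, Eomes had 8 CG in its window and Tfap2a 10 in each of its windows. Whether CpG content bears on the rise was not tested. Both risers hold the octamer ATGCAAAT, a sequence bound by POU factors such as POU5F1, and 1.60% of all windows hold it on either strand. In Cdx2 it lies 147 to 140 bases before the start on the strand of the gene, and in Plet1 73 to 66 bases before it on the opposite strand. None of the windows of Elf5, Eomes, Tfap2a or Esx1 had these letters. The octamer was searched after these sequences had been read, so setting it against 1.60% of all windows is no test. Of 3 other motifs searched on both strands, the TEAD letters GGAATG were found in the upstream Elf5 window (12.6% of all windows) and the AP-2 letters GCCNNNGGC in Cdx2 (13.7%). The caudal letters TTTATNG were in no window of the 6 genes covered (9.81% of all). A match of letters does not show that a factor binds.

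Plet1 (chromosome 9, 50494525 to 50505639, plus strand) gave the clearest difference. Its 3 control libraries had 171, 168 and 204 normalized counts, from 179, 169 and 172 reads. The 3 Ehmt2 siRNA libraries had 602, 566 and 636 normalized counts, from 751, 539 and 605 reads. The groups lay far apart, and the libraries of a group were close to each other. The means were 181 ± 19.7 and 601 ± 34.8 (SD, n = 3 each). In the authors' deposited table it rose by 1.74 on the log2 scale (SE 0.13), with an adjusted p of 1.50e-35 from their DESeq2 comparison. Leaving out any 1 library kept the ratio of means between 321% and 354% of control.

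**Figure D1:**
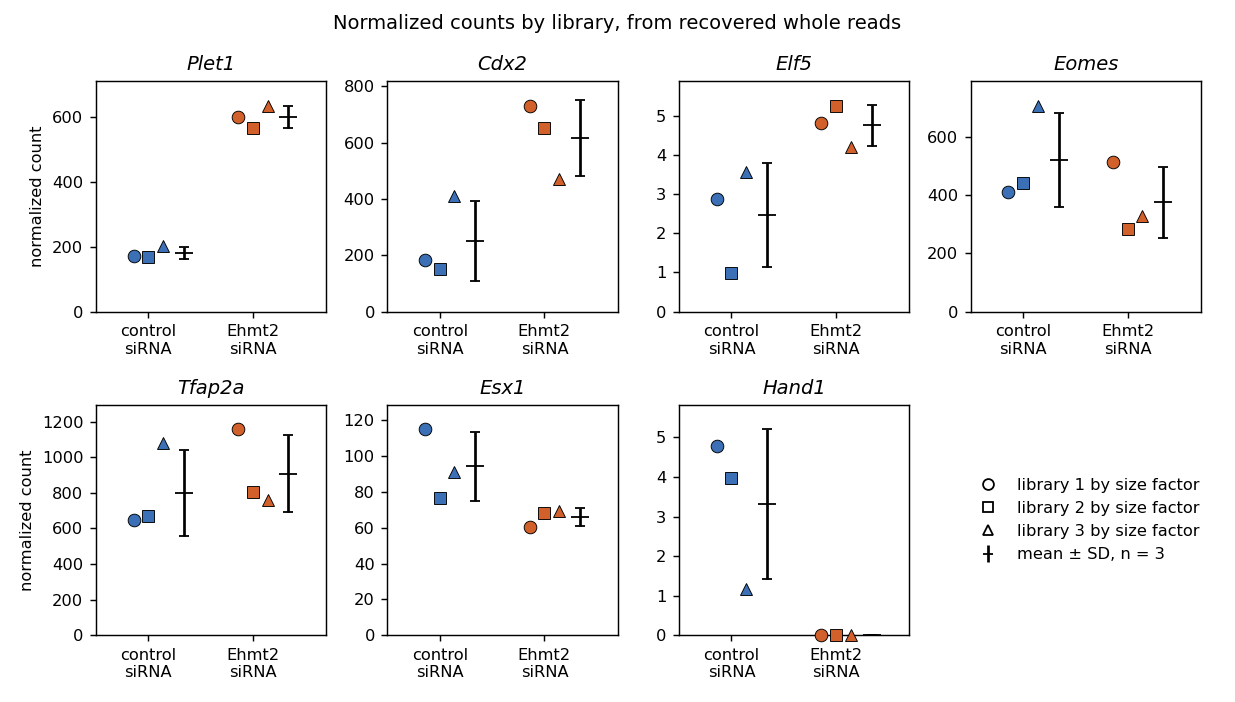
Normalized count (vertical axis, from 0) of the 7 genes with recovered reads in the 3 control siRNA (blue) and 3 Ehmt2 siRNA (orange) libraries, with symbols for the library and black bars for the mean ± SD. Plet1, Cdx2 and Elf5 are higher in every Ehmt2 siRNA library than in any control library, and Esx1 and Hand1 are lower. The groups of Eomes and Tfap2a overlap. Of the genes whose groups lie apart, Elf5, Esx1 and Hand1 did not pass the test.

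Cdx2 (chromosome 5, 147300900 to 147307249, minus strand), the homeobox gene that specifies trophectoderm, was higher in every Ehmt2 siRNA library than in any control, but its libraries were less alike. Control libraries had 182, 153 and 412 normalized counts, from 191, 154 and 348 reads. Ehmt2 siRNA libraries had 731, 650 and 470 normalized counts, from 912, 619 and 447 reads. Control library 3 was thus 2.45 times the mean of the other 2 controls and came close to the lowest Ehmt2 siRNA library. Group means were 249 ± 142 and 617 ± 134 (SD, n = 3 each). Cdx2 in the authors' deposited table rose by 1.31 on the log2 scale (SE 0.34), with an adjusted p of 0.00227 from their DESeq2 comparison. Without control library 3 the Ehmt2 siRNA mean was 367% of control in place of 247%, and without control library 2 it was 207%. In bulk RNA, a larger number of cells that express a gene and more RNA per cell cannot be told apart, for Cdx2 as for the other genes.

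Tead4 (chromosome 6, 128227143 to 128300813, minus strand) encodes the DNA-binding partner of YAP that acts before Cdx2. Its implied group means were 4515 normalized counts in control siRNA and 3642 in Ehmt2 siRNA. Tead4 in the authors' deposited table fell by 0.31 on the log2 scale (SE 0.11), and the adjusted p from their DESeq2 comparison was 0.0377. The call was lost once the trend with transcript GC content was subtracted. The log2 value was then -0.20 and the adjusted p 0.319 (Wald test recomputed with the SE unchanged). Tead4, by the uncorrected values, thus moved opposite to Cdx2 and by far less.

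The AP-2 genes Tfap2c and Tfap2a did not pass the test. Tfap2c (chromosome 2, 172545678 to 172558622, plus strand) had implied means of 3577 normalized counts in control and 4376 in Ehmt2 siRNA. In the authors' deposited table its log2 difference was 0.29, with an interval of -0.07 to 0.65 (adjusted p 0.418, DESeq2). Tfap2a (chromosome 13, 40713802 to 40738238, minus strand) had 646, 673 and 1078 normalized counts in control libraries and 1156, 803 and 762 in Ehmt2 siRNA libraries. The groups of Tfap2a overlapped, with means of 799 ± 242 and 907 ± 217 (SD, n = 3 each). In the authors' deposited table its log2 difference was 0.19, with an interval of -0.27 to 0.64 (adjusted p 0.827, DESeq2). Its reads are the least secure of the 7 genes, since 9332 sets met its mean and the fold change alone chose between them. The set taken missed the deposited log2 fold change by 2.5e-07 and the next set by 7.6e-06. Both lie within the tolerance of 1e-05, so the set taken is not the only one that fits. Without Ehmt2 siRNA library 1 its ratio of means was 97.9% of control in place of 114%.

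Eomes (chromosome 9, 118478186 to 118486132, plus strand), the T-box gene of trophoblast stem cells and primitive streak, also overlapped between the groups. Control libraries had 411, 443 and 707 normalized counts, and Ehmt2 siRNA libraries 514, 285 and 328. The means were 520 ± 162 and 376 ± 122 (SD, n = 3 each). In the authors' deposited table the log2 difference was -0.47, with an interval of -1.0 to 0.07 (adjusted p 0.358, DESeq2). Leaving out 1 library moved its ratio of means between 58.9% (without Ehmt2 siRNA library 1) and 88.0% (without control library 3). Eomes therefore did not rise with Cdx2 in any of these settings.

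**Figure D2:**
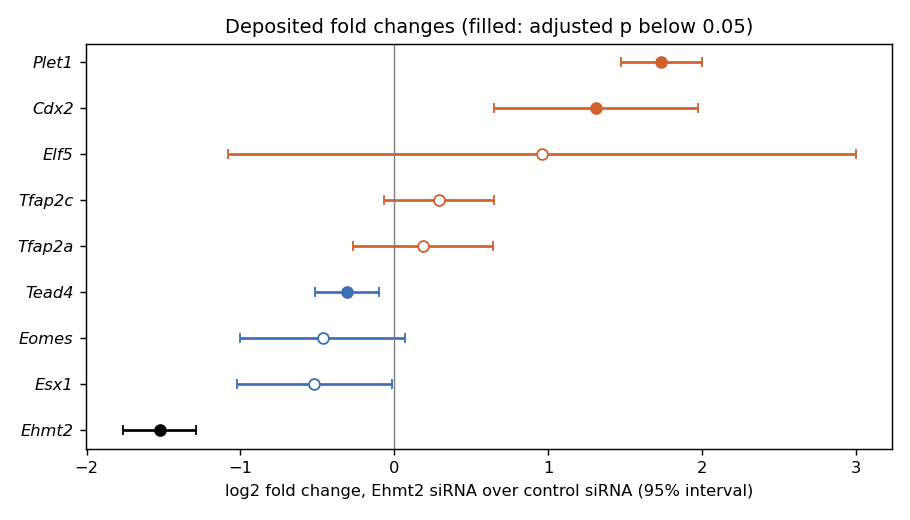
Log2 fold change (horizontal axis, from the authors' deposited table, Ehmt2 siRNA over control siRNA) with implied 95% intervals for 8 of the 9 genes and for Ehmt2, where filled points have an adjusted p below 0.05. Plet1 (1.74) and Cdx2 (1.31) lie to the right of 0, Tead4 (-0.31) just to the left, and Hand1 is left out because it had no read in Ehmt2 siRNA libraries.

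Esx1 (chromosome X, 137115397 to 137122131, minus strand), a homeobox gene of the placental labyrinth, was lower in every Ehmt2 siRNA library than in any control library but did not pass. Control libraries had 115, 76.6 and 91.2 normalized counts and Ehmt2 siRNA libraries 60.1, 68.3 and 69.3. The means were 94.1 ± 19.2 and 65.9 ± 5.06 (SD, n = 3 each). Esx1 in the authors' deposited table had a log2 difference of -0.52, with an interval of -1.02 to -0.02 and an adjusted p of 0.228 (DESeq2). The unadjusted p was 0.0425, and the gap between the highest Ehmt2 siRNA and lowest control library was 69.3 against 76.6 normalized counts.

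Elf5 and Hand1 were at the limit of detection. Elf5 (chromosome 2, 103412098 to 103450989, plus strand), an ETS factor that stabilises the trophoblast state, had 3, 1 and 3 reads in control libraries and 6, 5 and 4 in Ehmt2 siRNA libraries. All 3 Ehmt2 siRNA libraries were above all 3 controls once divided by size factors, with 4.81, 5.25 and 4.20 against 2.87, 0.995 and 3.55 normalized counts. With 22 reads in all, the interval of its log2 fold change of 0.96 in the authors' deposited table ran from -1.08 to 3.00 (adjusted p 0.770, DESeq2). Hand1 (chromosome 11, 57828713 to 57832147, minus strand), a bHLH factor needed for trophoblast giant cells, had 5, 4 and 1 reads in control libraries and 0 in each Ehmt2 siRNA library. Taking 3 reads over the group as the limit that a count of 0 allows, the control mean of Hand1 was 3.48 times that limit. This counts the error of the 0 reads only and takes the 10 control reads as exact, so it sets no lower bound on the fall of Hand1. Its log2 fold change of -4.24, the lowest in the authors' deposited table, is a fitted value against 0 reads and no bound, and its adjusted p was 0.204 (DESeq2). The reads of Elf5 and Hand1 were too few to call a difference in either.

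**Figure D3:**
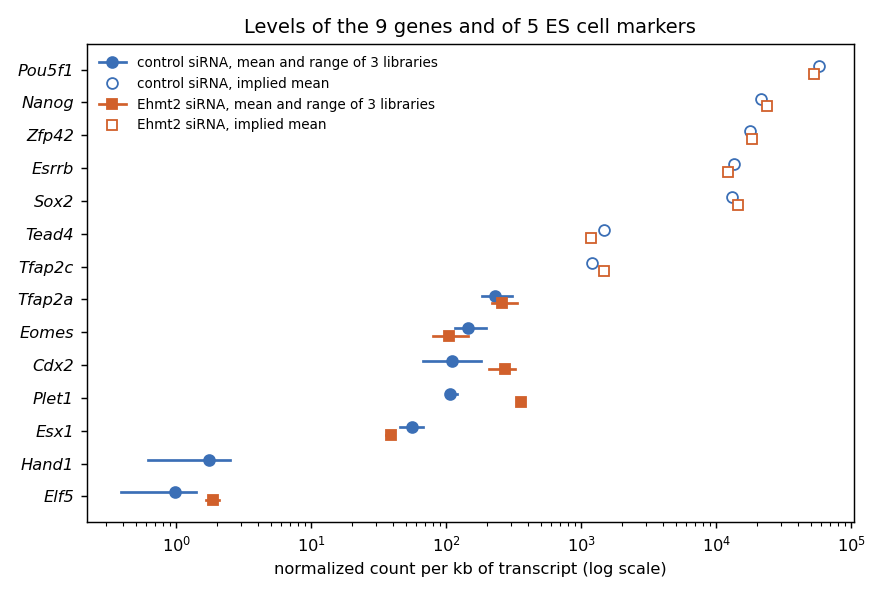
Normalized count per kb of the longest coding transcript (horizontal log axis) for the 9 genes and 5 ES cell markers in control siRNA (blue circles) and Ehmt2 siRNA (orange squares), where filled points carry the range of 3 libraries and open points are implied means. Elf5 (0.976 in control) and Hand1 (1.74) lie lowest and Pou5f1 (57560) highest, and the Ehmt2 siRNA value of Hand1, which was 0, cannot be drawn on this axis.

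Per length of transcript, the 9 genes fell into separate tiers in control cells. Tead4 and Tfap2c were highest, at 1468 and 1198 normalized counts per kb (implied means). Tfap2a followed at 229 ± 69.5, Eomes at 146 ± 45.6, Cdx2 at 110 ± 62.7, Plet1 at 107 ± 11.7 and Esx1 at 55.6 ± 11.3 per kb (SD, n = 3 each). Among these, the library ranges of Tfap2a, Eomes, Cdx2 and Plet1 each overlapped with that of the neighbour in this order, while Esx1 (45.3 to 67.7 per kb) lay below Plet1 (99.5 to 121). Hand1 (1.74 per kb) and Elf5 (0.976 per kb) were lowest and overlapped. In Ehmt2 siRNA cells Plet1, at 356 ± 20.6 per kb, stood above every library of Cdx2 (273 ± 59.1) and Tfap2a (260 ± 62.1, SD, n = 3 each). For comparison, Pou5f1, the defining ES cell factor, was at 57560 per kb in control and 53191 in Ehmt2 siRNA (implied means), so Cdx2 remained far below it. Pou5f1, Nanog, Sox2, Zfp42 and Esrrb, used here as ES cell markers, had means from 12853.5 to 55375 per kb over both groups. Of these, Esrrb and Zfp42 are also in the list of other trophoblast stem cell genes, so they do not tell the 2 cell types apart. None passed the test in the authors' deposited table (DESeq2), with log2 differences from -0.13 to 0.15.

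Cdx2, Eomes and Tfap2a shared a pattern between libraries of the same group. All 3 were highest in control library 3 among controls and in Ehmt2 siRNA library 1 among Ehmt2 siRNA libraries. Control library 3 stood at 2.45, 1.66 and 1.64 times the mean of the other 2 controls for Cdx2, Eomes and Tfap2a, and Ehmt2 siRNA library 1 at 1.30, 1.68 and 1.48 times that of its 2 partners. Plet1 (1.20 and 1.0) and Esx1 (0.953 and 0.873) did not show it. Control library 3 has the smallest size factor of the 6 and Ehmt2 siRNA library 1 the largest. Among 49 other listed genes that averaged 10 or more normalized counts and had recovered reads, 12 were highest in both of these libraries and 18 were lowest in both. Named after their values were seen, Lats2, a kinase that inhibits YAP, had 45.9, 57.7 and 142 normalized counts in controls and 123, 64.1 and 56.7 in Ehmt2 siRNA libraries. Wnt3, a ligand of the primitive streak, ran the other way, with 23, 23 and 7 reads in controls and 35, 86 and 51 in Ehmt2 siRNA libraries. Whether size factor bears on the pattern was not tested.

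**Figure D4:**
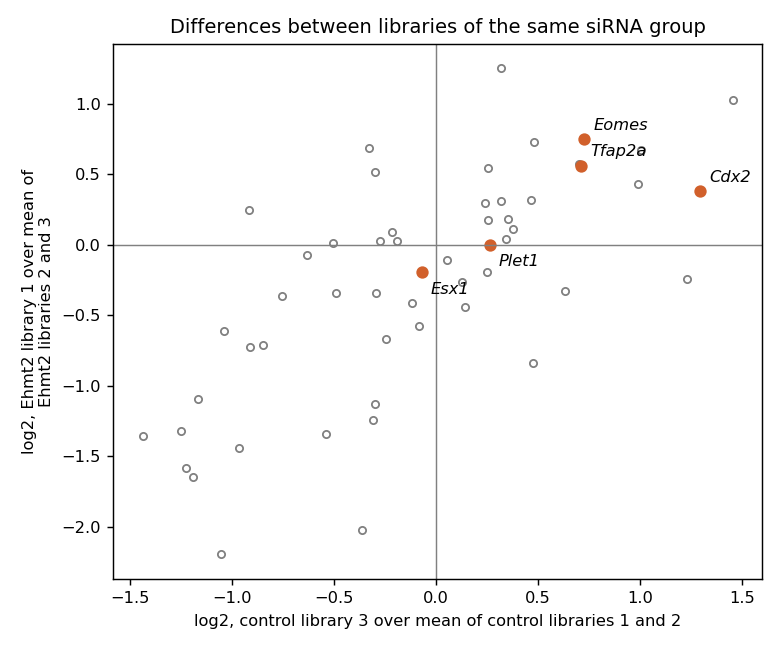
Log2 ratio of control library 3 to the mean of control libraries 1 and 2 (horizontal) and of Ehmt2 siRNA library 1 to the mean of libraries 2 and 3 (vertical) for listed genes averaging 10 or more normalized counts and with recovered reads, with the trophectoderm genes in orange. Cdx2, Eomes and Tfap2a lie above 0 on both axes, while Plet1 (ratios of 1.20 and 1.0) and Esx1 (0.953 and 0.873) lie closer to the centre.

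Of 16 relatives of the 9 genes tested, 2 rose and 1 fell (18.8%, against 10.3% of all genes), with a median log2 fold change of -0.04. Tbx21, a T-box relative of Eomes best known from T cells, fell to 32.7% of its control level in the authors' deposited table (adjusted p 0.00183, DESeq2). It had 46.8, 34.8 and 45.0 normalized counts in controls and 11.2, 13.7 and 16.8 in Ehmt2 siRNA libraries, so the groups were apart. The epithelial ETS genes Ehf and Elf3, relatives of Elf5, rose by log2 fold changes of 1.54 (adjusted p 0.0171) and 0.26 (adjusted p 0.0139) in the authors' deposited table (DESeq2). Ehf had 11.5, 10.9 and 22.5 normalized counts in controls and 56.9, 41.0 and 30.5 in Ehmt2 siRNA libraries. Elf4 did not pass, at -0.26.

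Among 29 other genes of trophoblast stem cells tested, 4 rose and 1 fell (17.2%), with a median log2 fold change of 0.03. Fgfr2, the receptor through which FGF maintains trophoblast stem cells, rose by 1.18 on the log2 scale in the authors' deposited table (adjusted p 0.00375, DESeq2). Its libraries had 24.8, 26.9 and 30.8 normalized counts in controls and 56.9, 73.5 and 56.7 in Ehmt2 siRNA, with no overlap. Ly6a (1.0), Sox21 (0.85) and Cdh3 (0.65, log2 fold changes) rose in the authors' deposited table, Cdh3 being named after its value was seen. Bmp8b, a ligand of extraembryonic ectoderm, fell by 1.69 on the log2 scale in the authors' deposited table. Genes of trophoblast differentiation were tested in 17 cases, of which 1 rose and 3 fell (23.5%), with a median log2 fold change of -0.32. Slc16a3, a lactate transporter, rose (0.70), and Mdfi (-0.73), Phlda2 (-0.79) and Gjb2 (-1.59) fell in the authors' deposited table. The other 12 genes of this list found in the table were listed at 0, among them Tpbpa, Prl3d1 and Prl3b1, which define spongiotrophoblast and giant cells.

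**Figure D5:**
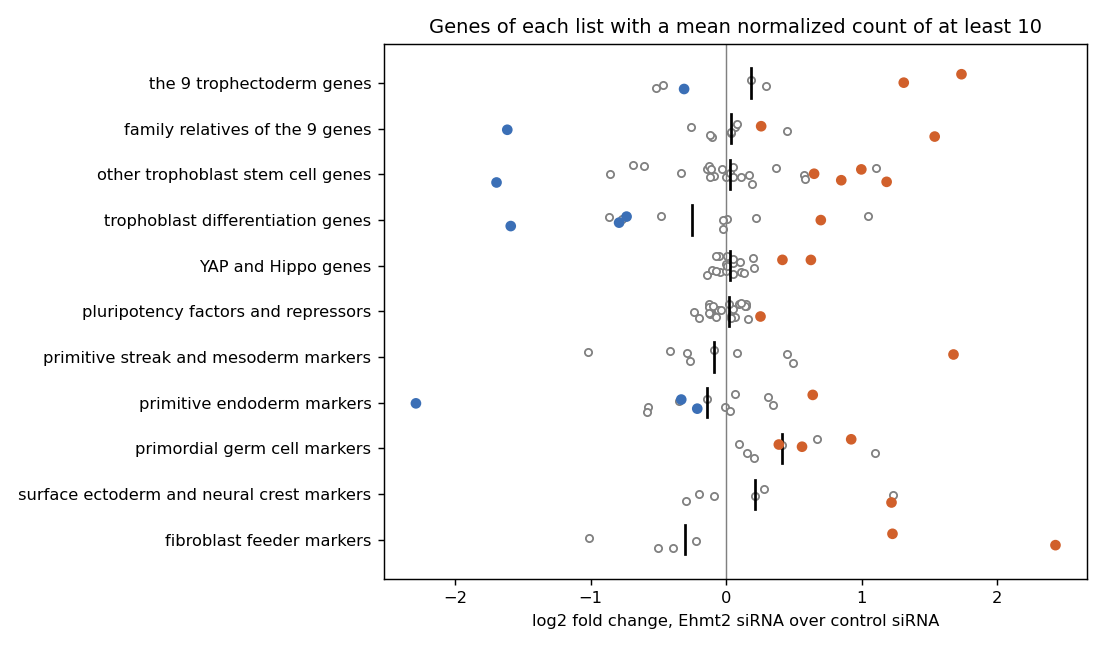
Log2 fold change (horizontal axis, from the authors' deposited table) for the genes of each list that averaged 10 or more normalized counts, where filled points have an adjusted p below 0.05 (orange higher, blue lower), grey circles did not pass and black ticks are medians of the genes drawn. Medians in the text are over all tested genes of a list unless stated. Plet1 (1.74) and Cdx2 (1.31) are the highest of the 9 genes, and pluripotency factors stay near 0.

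Of 21 YAP and Hippo genes tested, 2 rose and 0 fell (9.52%, against 10.3% of all genes). At an unadjusted p under 0.05 (DESeq2), 5 were higher and 0 lower. The risers were the angiomotins Amot (0.63) and Amotl1 (0.42, log2 fold changes in the authors' deposited table), which hold YAP out of the nucleus. The Hippo pathway cofactor Mob1b (0.20) and the kinase Stk3 (0.21) did not pass. Of 23 pluripotency factors and repressors of trophoblast genes, Nr5a2 rose (0.25 in the authors' deposited table) and 0 fell (4.35% called). At an unadjusted p under 0.05 (DESeq2), 2 of them were higher and 1 lower. With the GC trend subtracted, Nr5a2 no longer passed (log2 value 0.18, adjusted p 0.0659, recomputed Wald test). Tfcp2l1, like Esrrb and Nanog a pluripotency factor, had -0.12 in the authors' deposited table and did not pass. The median log2 fold change was 0.05 for the YAP and Hippo genes and 0.02 for the pluripotency list.

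Markers of other cell types that share these genes moved as follows in the authors' deposited table, given as log2 fold changes. Of 14 primitive streak and mesoderm genes 1 rose (Wnt3, 1.68) and 0 fell (2 and 1 at an unadjusted p under 0.05, DESeq2), with T at 0.45, Mesp2 at -1.02 and Kdr at -0.42 not passing. The median of that list was -0.0046, and Msgn1 was listed at 0. Of 15 primitive endoderm genes 1 rose (Pdgfra, 0.64) and 3 fell (Amn, -2.29; Sparc, -0.33; Apoe, -0.21), with a median of -0.14. Pdgfra and Apoe no longer passed with the GC trend subtracted (adjusted p 0.0652 and 0.522, recomputed Wald test). Of 10 primordial germ cell genes 3 rose (Nanos3, 0.92; Prdm1, 0.56; Kit, 0.39) and 0 fell (6 and 0 at an unadjusted p under 0.05, DESeq2), with Dnd1 (0.41) not passing and a median of 0.40. Of 12 surface ectoderm and neural crest genes 1 rose (Grhl2, 1.21) and 0 fell (2 and 1 at an unadjusted p under 0.05, DESeq2), with a median of 0.01. Trp63 (1.23), Grhl3 (-0.09) and Foxd3 (-0.30) did not pass. The share called was 7.14% for primitive streak, 26.7% for primitive endoderm, 30% for germ cell and 8.33% for surface ectoderm genes. Over all tested genes it was 10.3%.

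Of 9 fibroblast feeder genes 2 rose and 0 fell (22.2%, against 10.3% of all genes). At an unadjusted p under 0.05 (DESeq2), 3 were higher and 1 lower. The median log2 fold change of these genes was 1.23 in the authors' deposited table. Over the 6 of them with a mean of at least 10 the median was -0.31, so its sign rests on genes with few reads. The collagen genes Col1a2 (2.43) and Col5a2 (1.23) rose in the authors' deposited table, whereas Thy1 (-1.01) and Fbln1 (-0.22) did not pass. Col1a1 (-0.39) and Twist1 (-0.50), named after their values were seen, did not pass either. Both were lower in every Ehmt2 siRNA library than in any control library. Col1a2 had 33, 32 and 34 reads in control and 235, 190 and 159 in Ehmt2 siRNA libraries. Of the genes of this list with a mean under 10, all named here after their values were seen, Postn had 5 reads in control and 30 in Ehmt2 siRNA libraries, Lum 2 and 9, and Col3a1 1 and 4. Dcn was listed at 0. Fbln1 makes up most of the summed level of the list, which was 9732 implied normalized counts in control and 8536 in Ehmt2 siRNA with Fbln1, and 258 and 405 without it. The other sums, in the same order, were 2575 and 3105 for primitive streak genes (913 and 841 without T), 97800 and 85887 for primitive endoderm (53192 and 47397 without Apoe), 49270 and 65306 for germ cell (23219 and 31191 without Kit) and 4806 and 4880 for surface ectoderm genes (1178 and 1461 without Grhl3). Leaving out its most abundant gene thus turned the direction of the fibroblast and primitive streak sums, and no sum has a spread. The part of these cell types in the rise of Plet1 and Cdx2 was not tested.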

How the data were processed

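Polyadenylated RNA of 3 control siRNA and 3 Ehmt2 siRNA samples of E14 cells was sequenced from stranded TruSeq libraries, per the labels. Per the submitters' processing notes, FastQC, Trimmomatic 0.36, STAR and DESeq2 were used with build GRCm38. Not given in the sources used here are the counting tool, annotation and strand setting. Overlapping and antisense genes may therefore share reads. The authors deposited 1 table, with a mean normalized count per gene over all libraries (a signal scaled by size factors), a p-value and a log2 fold change, per the file headers. Depth per library is not given in it.

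P-values were adjusted by the Benjamini-Hochberg method over 20461 genes, and 4778 further genes are listed at 0. Standard errors and 95% intervals are those implied by the fold change and p-value of a Wald test. Genes with 1 read give the worth of a read in each of 6 libraries, and the sign of their fold change gives the group. Whole reads were then searched whose weighted sum meets the deposited mean within an absolute 1.5e-12. The group means were held within 15%, 5% or 1% of the implied ones (means under 100, under 500 and above; no limit under 10), so a set is unique within these windows only. Where several sets met the mean, the 1 whose negative binomial fit gave the deposited log2 fold change within 1e-05, and at least 10 times closer than the next, was taken. This recovered 82 of 82 genes tried, 63 from a single set, and 32 of 32 simulated read sets. Fold changes and p-values of the simulated sets came from the same negative binomial model as the search, at a fixed dispersion. Their recovery is therefore no independent check of that model. Simulated sets were drawn at control means below those of Eomes and Tfap2a, so recovery at the levels of these genes was not tested. The method, its windows and tolerances were set after seeing the data. The fold change tolerance was first 1e-06, which 5 genes of mean 10 or more, none of them among the 9, had missed. Recovered reads were used for values by library and for leaving out libraries, not for calls.

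The 9 genes and all lists were chosen with earlier results of these data known. The sequence motifs were chosen after the data were seen. Named from each other list were up to 4 genes with the smallest p among those with a mean of at least 10, and exceptions are stated. Lengths came from the longest coding transcript of GENCODE M21, and GC content from the longest transcript of any type. Loci and promoters came from RefSeq, where 6 of the 9 genes had a window. Alternatives were a mean of at least 10 or 50, an adjusted p below 0.01, centring on the median, and subtracting a lowess trend (fraction 0.3) on GC content. After centring or the GC step, p-values were recomputed by a Wald test from the shifted fold change and the unchanged standard error. The adjustment was run on simulated fold changes. Standard errors were recomputed there by inverting the formula that made the p-values, which is no independent check, and coverage of the intervals was not tested. Python 3.11.15, scipy 1.17.1, statsmodels 0.14.6 and numba 0.67.0 were used.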

Additional observations from a re-analysis of the deposited data

How the results depend on the processing

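Of the 9 genes, 3 were called in the main setting, with a mean of at least 10 or 50 and after centring. At an adjusted p below 0.01 (DESeq2 p-values), and with the GC trend subtracted, 2 were called (Plet1 and Cdx2). Tead4 was lost in both, with a log2 fold change of -0.20 after the GC step, and its adjusted p ranged from 0.0273 to 0.319 over its alternatives. Over all genes 2103 were called, against 2223 with a mean of at least 10, 2000 with at least 50, 2094 after centring and 1594 with the GC trend subtracted. At an adjusted p below 0.01 there were 1327, of which 726 rose and 601 fell, since that limit is stricter. Leaving out 1 library each, an alternative added after seeing the data, moved the log2 ratio of means between 1.05 and 1.88 for Cdx2, 1.68 and 1.83 for Plet1, 0.57 and 1.30 for Elf5, -0.64 and -0.35 for Esx1, -0.76 and -0.18 for Eomes and -0.03 and 0.46 for Tfap2a. These ratios carry no test. No paired analysis was possible because the table has no values by sample and the recovered libraries carry no replicate number. Another scaling of the libraries, a filter on counts per library and a full refit without a replicate were not run for the same reason. The 22 reads of Elf5 and 10 of Hand1 limit what can be said of them.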
